A study of Mus musculus with 8 samples.

Results

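Belly skin of 7 mice aged 8 months was divided by how much hair keratin RNA it held. Transgenic 17 and wildtype 26 made up the skin low in hair keratin, and transgenic 7, 11 and 84 with wildtype 28 and 29 made up the skin high in hair keratin, so 2 of 7 animals were low and 5 were high. The animals were chosen by their measured hair keratin values, and the hair cycle phase, histology and dissection of the skin are not given in the labels. The low and high sets are therefore described without a test, and the mean log2 level of 12 hair shaft keratins was 9.06 in the low animal nearest to the division (transgenic 17) and 11.66 in the nearest high animal (transgenic 11).

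The study compared 4 mice carrying a transgene for hurpin, a serine protease inhibitor by family that blocks cathepsin L, with 3 wildtype mice. Females 7 and 84 and males 11 and 17 were transgenic, and males 26 and 28 and female 29 were wildtype. The promoter of the transgene, the strain and the founder line are not given in the labels, and nothing in them records treatment. Wildtype 29 had been measured on 2 arrays, whose log2 levels were averaged, so that 8 arrays stood for 7 animals. Each set held both genotypes, but both low animals were male, while the high set held 2 males (11 and 28) and 3 females (7, 84 and 29). Counts and medians of gene lists are therefore also given for the 4 males alone. Of the genes named by rule, 59 of the 62 lower ones were also lower in the males, but only 24 of the 46 higher ones were also higher there. Both low animals are male, so sets that do not overlap over all 7 animals cannot overlap in the males. Only the size of the mean difference could fall short there, so the male counts are not an independent check.

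Levels are log2 of the deposited signal intensity plus 21.8, called the log2 level, with a floor of 4.45 where the signal is 0. A difference of 1 on this scale is close to a doubling of bright signals and understates the change of dim ones. Summed signal lay between 34785081 and 37857733 per array, and the difference between the arrays of wildtype 29 had an SD of 0.549 over all probe sets. For the Gapdh control, signal at the 3' end over signal at the 5' end was 13.8 in transgenic 7 and 17.2 in transgenic 84, both high, 4.68 in transgenic 17, and at most 1.45 on every other array. The part of this RNA quality measure in the differences was not tested, and values without transgenic 7 and 84 are given for the counts over all probe sets.

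Hair follicles pass through growth (anagen), regression (catagen) and rest (telogen). During growth, matrix cells at the base of the follicle divide around the dermal papilla, and their daughters become the layers of the inner root sheath and the hair shaft. The shaft is built from hair keratins, whose filaments are held in a matrix of keratin-associated proteins, and melanocytes in the bulb pass melanin to the growing shaft. At rest the lower follicle is lost and the stem cells of the bulge are quiescent. In whole skin a smaller number of cells of a type and less RNA per cell cannot be told apart.

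Promoters of leading genes are shown for lists that held genes lower in the low set by the rule given further on. All 12 hair shaft keratins were lower, which follows from the choice of animals. In the other lists 7 of 23 pigment genes, 33 of 49 mitosis genes and 12 of 47 replication genes were lower. RefSeq on GRCm38.p6 gave the 250 bases before the transcription start of 7 of the 12 hair shaft keratins measured. The windows of Krt31 (chr11:100050552-100050801), Krt33b (chr11:100029869-100030118) and Krt34 (chr11:100041555-100041804), all on the minus strand, are written 5′ to 3′ with matches to the Lef1/Tcf letters CTTTGAA and the TATA box letters TATAAA in capitals.
Krt31: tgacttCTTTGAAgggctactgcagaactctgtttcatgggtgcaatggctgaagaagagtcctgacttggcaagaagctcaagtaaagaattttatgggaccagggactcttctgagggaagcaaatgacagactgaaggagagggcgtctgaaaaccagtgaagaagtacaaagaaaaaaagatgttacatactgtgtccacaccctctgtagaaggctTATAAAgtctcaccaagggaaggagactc
Krt33b: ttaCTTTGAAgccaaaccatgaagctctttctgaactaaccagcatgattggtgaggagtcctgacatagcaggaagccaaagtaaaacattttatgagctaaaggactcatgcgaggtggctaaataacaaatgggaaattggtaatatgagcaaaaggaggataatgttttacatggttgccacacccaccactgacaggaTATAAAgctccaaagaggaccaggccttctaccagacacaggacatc
Krt34: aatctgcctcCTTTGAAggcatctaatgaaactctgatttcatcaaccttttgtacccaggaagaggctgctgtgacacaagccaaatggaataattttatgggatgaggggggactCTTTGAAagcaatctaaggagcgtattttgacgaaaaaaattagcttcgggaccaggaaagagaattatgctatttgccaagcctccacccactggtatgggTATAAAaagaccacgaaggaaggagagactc
Lef1 is a transcription factor of the Wnt pathway, and the TATA box places the start of transcription. On either strand, CTTTGAA was present in 4 of the 7 hair shaft keratin promoters (57.1%; Krt31, Krt32, Krt33b and Krt34) and in 4.64% of all 27025 promoters of the same length. It was in 1 of 14 inner root sheath promoters (7.14%) and 6 of 36 of keratin-associated proteins (16.7%), and the variant CTTTGAT was in 0 of the 7 hair shaft keratin promoters and 3.23% of all. In 3 of the 4 (Krt31, Krt32 and Krt33b) the first base of a match lay at position -247 or -244, counted back from the start. Krt33b, Krt34, Krt31 and Krt32 are neighbouring genes of 1 family, so these 4 promoters may not be independent of each other. Compared base by base without gaps, their pairs were identical at 20.4% to 34.4% of positions. Such a comparison misses shifted copies, and a shared origin of the matches was not tested. TATAAA was present in 5 of 7 hair shaft keratin promoters, in 28 of 36 of those of keratin-associated proteins (77.8%) and in 13% of all promoters. A match is a description of letters and not a site of binding.

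Pigment gene promoters are shown for the letters TCATGTG, the M-box through which the transcription factor Mitf acts on melanin genes. Tyr (chr7:87493513-87493762, minus strand) and Tyrp1 (chr4:80833963-80834212, plus strand) carry it in capitals.
Tyr: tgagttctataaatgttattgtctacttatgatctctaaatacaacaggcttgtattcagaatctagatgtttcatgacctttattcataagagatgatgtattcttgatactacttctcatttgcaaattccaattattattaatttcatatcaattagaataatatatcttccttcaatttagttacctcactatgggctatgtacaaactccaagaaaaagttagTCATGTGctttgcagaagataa
Tyrp1: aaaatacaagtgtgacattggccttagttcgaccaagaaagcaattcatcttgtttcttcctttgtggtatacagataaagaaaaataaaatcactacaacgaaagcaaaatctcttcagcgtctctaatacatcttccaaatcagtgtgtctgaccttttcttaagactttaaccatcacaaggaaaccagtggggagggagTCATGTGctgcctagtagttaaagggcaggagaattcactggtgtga
The M-box letters, searched on both strands, were in 6 of 16 pigment gene promoters (37.5%; Tyr, Tyrp1, Dct, Mc1r, Trpm1 and Slc7a11) and in 3.22% of all promoters. Of these 6 genes, Tyr, Tyrp1, Dct and Trpm1 were lower in the low set by the rule given further on, and Mc1r and Slc7a11 were not.

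Top2a, the topoisomerase that untangles chromosomes in dividing cells, has its promoter at chr11:99024190-99024439 on the minus strand. Capitals mark, on either strand and so also as the reverse complement, CCAAT, the CCAAT box, and TTTGAA, the cell cycle element CHR, which lies within CTTTGAA and so overlaps the Lef1/Tcf letters.
Top2a: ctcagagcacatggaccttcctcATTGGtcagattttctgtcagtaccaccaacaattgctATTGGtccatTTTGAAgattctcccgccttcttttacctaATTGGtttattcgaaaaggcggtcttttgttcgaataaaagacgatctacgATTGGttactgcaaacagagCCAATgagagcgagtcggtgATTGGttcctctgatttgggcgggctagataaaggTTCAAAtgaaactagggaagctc
CCAAT, on either strand, was found in 30 of 41 promoters of mitosis genes (73.2%), in 24 of 39 of replication genes (61.5%) and in 34.5% of all. GCGGGAA, letters bound by the E2F factors of S phase, was in 10 of 39 replication gene promoters (25.6%), in 0 of 41 mitosis gene promoters and in 3.84% of all.

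Hair shaft keratins were lower in both low animals, and wildtype 26 lay further down than transgenic 17 in 10 of 12 of them. Krt31, a keratin of the hair cortex, had log2 levels of 14.36 in transgenic 7, 12.93 in 11, 14.17 in 84, 14.49 in wildtype 28 and 14.50 in 29. It stood at 9.90 in transgenic 17 and 7.04 in wildtype 26. As deposited signal, wildtype 28 had 22998 and wildtype 26 had 110 units. Among the high animals transgenic 11 was the lowest, and both low animals lay clear of it. The mean difference, low minus high, was -5.62 (SD of the high animals 0.66, n = 5), with -3.92 within the transgenic and -7.46 within the wildtype animals.

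A feature was counted as lower when both low animals lay below all 5 high animals with a mean difference of -1 or less, and as higher in the mirrored case. By this rule 828 of 45037 probe sets were lower (1.84%) and 673 were higher (1.49%). With 1 probe set a gene, the most abundant, 485 of 18193 genes were lower (2.67%) and 308 were higher (1.69%). In the 4 males alone, 682 genes were lower (3.75%) and 483 were higher (2.65%). These shares are the background against which each list is read, and since the rule chose the animals by hair keratins, nothing is concluded from the hair keratin counts themselves. Other probe sets of a gene often did not give the same call: of 49 named genes called here that have more than 1 probe set, 23 had the same call on another one and 26 did not.

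Both counts rise when animals are left out. Fewer animals then have to be cleared, but the mean difference changes as well, and the part of each was not tested. Without transgenic 17 they were 1440 lower and 2415 higher, without wildtype 26 they were 1766 and 1364, and without transgenic 7 and 84 they were 1310 and 990. Over all genes the median difference was 0.04, and 0.03 in the males.

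**Figure D1:**
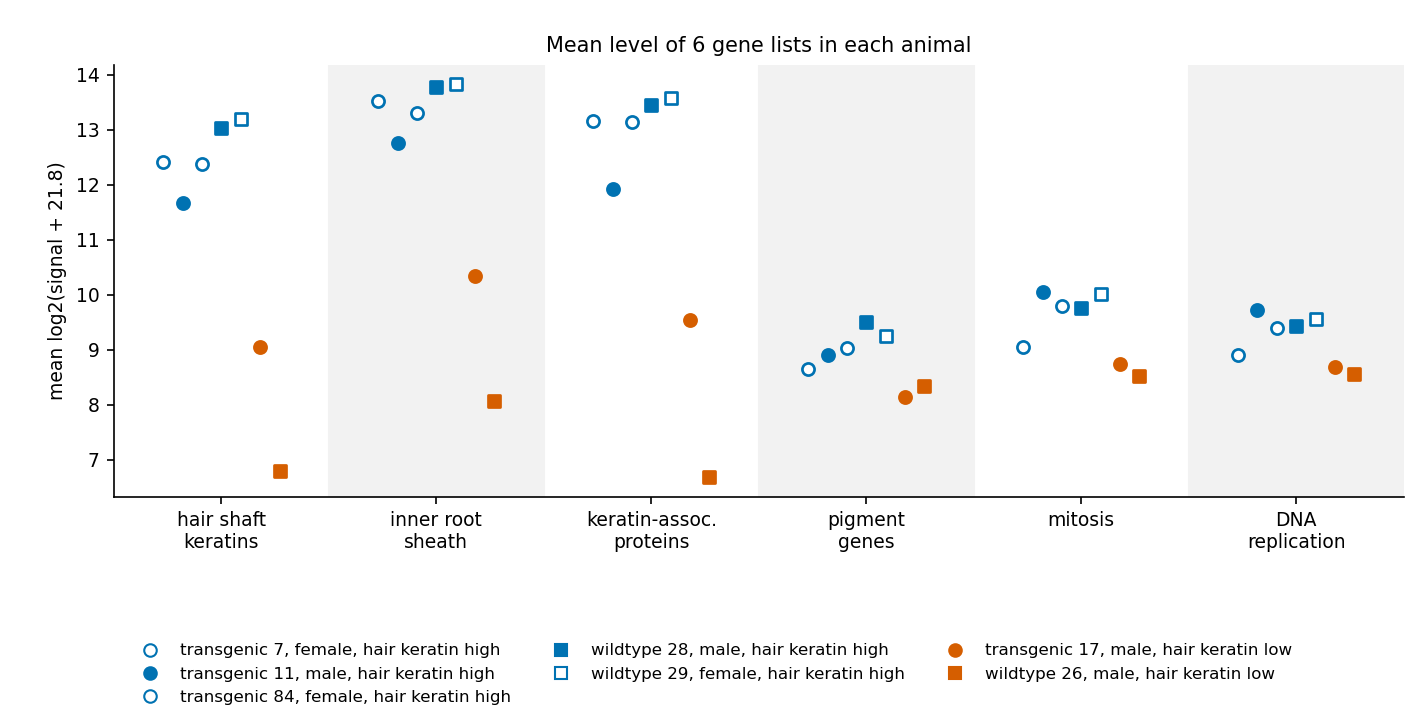
Mean log2(signal + 21.8) of 6 gene lists (y axis) in each of the 7 animals, with orange for the low and blue for the high set, circles for transgenic and squares for wildtype, filled for males and open for females. Transgenic 17 lies between wildtype 26 and the high animals in the 3 lists on the left, and close to wildtype 26 in the 3 lists on the right.

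All 12 hair shaft keratins measured were lower by the rule, and Krt39, Krt40, Krt85 and Krt87 were not analysed here. Their differences ran from -6.26 for Krt33a, a cortex keratin, to -1.55 for Krt84, with a median of -5.12. Krt33a stood at 5.55 in wildtype 26 and 10.92 in transgenic 17, and between 13.59 and 14.87 in the high animals. Krt33b went from 5.13, near the floor, and 9.93 in the same animals to between 12.15 and 14.32 in the high set. For Krt86, a type II partner of these keratins, the low animals stood at 6.57 and 9.81 and the high ones between 12.69 and 14.24. In the 4 males alone the median was -4.89 and all 12 genes were lower.

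Genes of the inner root sheath and the companion layer, the sheath that moulds the growing shaft, followed the same order of animals. Of 14 measured, 13 were lower, with a median of -4.77 (-4.58 in the males). Krt71, a keratin of the inner root sheath, stood at 14.52, 14.26 and 14.44 in transgenic 7, 11 and 84 and at 14.96 and 14.81 in wildtype 28 and 29. Transgenic 17 had 11.46 and wildtype 26 had 8.30. The high animals spread over less than 1 log2 unit and the difference was -4.71, with -2.94 in transgenic and -6.58 in wildtype mice.

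Tchh, trichohyalin, which fills the cells of the inner root sheath, lay at 14.87, 14.35, 14.64, 14.65 and 14.79 in high animals 7, 11, 84, 28 and 29. In transgenic 17 it was 13.27 and in wildtype 26 it was 10.07. Here transgenic 17 was nearer to the high animals than to wildtype 26. Krt26 and Krt73, keratins of the inner root sheath, differed by -6.17 and -5.55, S100a3, a calcium-binding protein of the hair cuticle, by -5.80, and Padi3, which converts arginine of trichohyalin to citrulline, by -5.63. Lgals3 was the member not called, at 0.13, and Krt74 was not analysed here.

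Keratin-associated proteins gave 36 lower of 38 measured genes, with a median of -5.07 and a median of -4.59 in the males. Krtap19-2 had the most negative difference of all genes with 1 symbol that met the naming rule. It stood at 14.61 and 13.55 in transgenic 7 and 11, at 14.77 and 14.96 in wildtype 28 and 29 and slightly above these in transgenic 84, against 9.17 in transgenic 17 and 5.36 in wildtype 26, a difference of -7.31. Wildtype 26 was within 1 unit of the floor of the scale, so this size depends on the pseudocount. Krtap5-3 (-2.76) and Krtap13 (-0.25) were the members not called. Members of the keratin and keratin-associated families are near copies of each other, and how far a probe set reads its relatives is uncertain.

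Some neighbouring genes on the chromosomes lay low together. Most genes in these runs are keratins or keratin-associated proteins of clustered loci, which the choice of animals by hair keratins puts together, so nothing is read from the runs. The longest run held 20 genes from Krtap3-1 through Krt33a, Krt33b, Krt34 and Krt31 to Krt36, and the next held 14 genes from Krtap14 to Krtap6-3. Type II keratins formed a run of 6 (Krt81, Krt86, Krt83, Krt84, Krt82 and Krt75), and the inner root sheath keratins Krt25 to Krt28 and Krt71 to Krt73 formed runs of 4 and 3. Outside the keratin families, the homeobox genes Dlx3 and Dlx4 lay in a run of 4, and the gap junction genes Gja3, Gjb2 and Gjb6 in a run of 3.

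**Figure D2:**
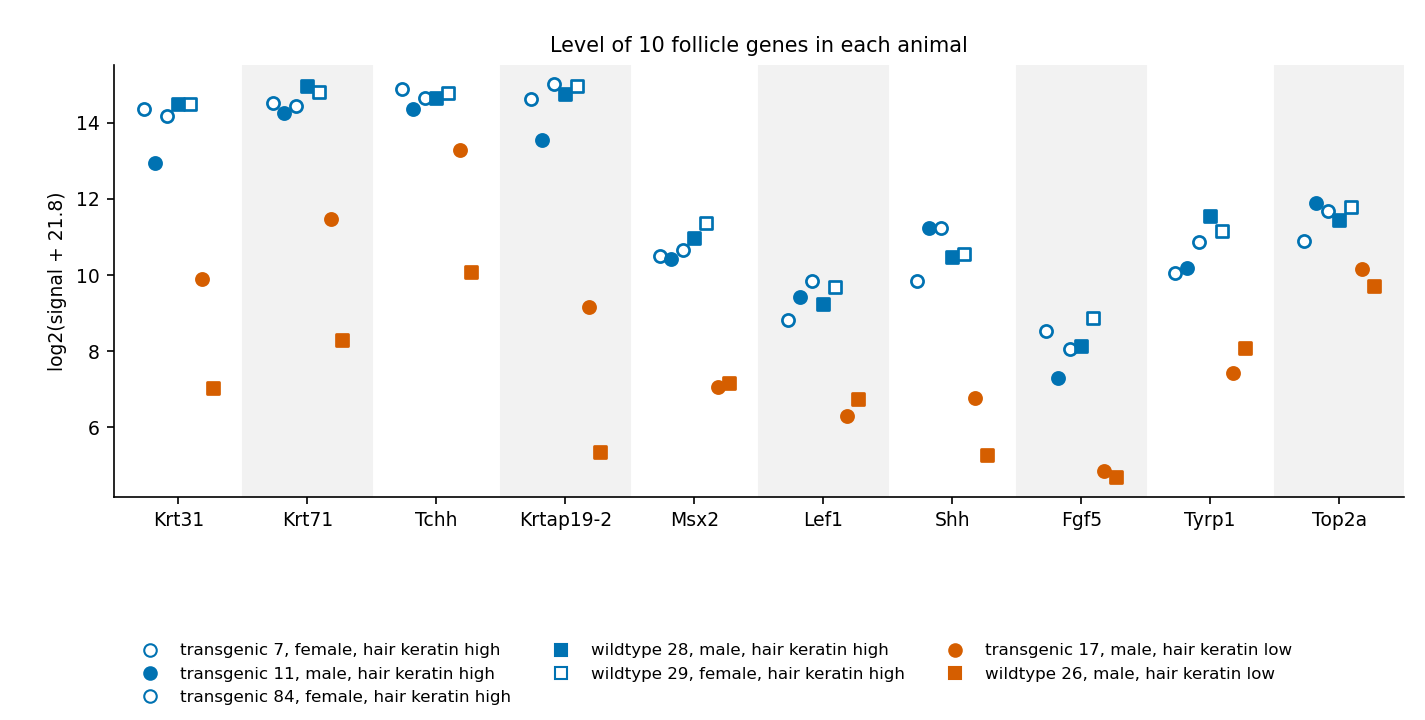
Log2(signal + 21.8) of 10 follicle genes (y axis) in each of the 7 animals, with orange for the low and blue for the high set, circles for transgenic, squares for wildtype, filled for males and open for females. In each gene both orange points lie under all 5 blue points, and for Krt31, Krt71, Tchh and Krtap19-2 transgenic 17 lies well above wildtype 26.

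The low animals stood apart from each other in shaft and sheath genes more than in other follicle genes. Transgenic 17 exceeded wildtype 26 by at least 1 log2 unit in 9 of 12 hair shaft keratins, 11 of 14 inner root sheath genes and 33 of 38 keratin-associated proteins, with median gaps of 2.14, 2.64 and 3.26. It did so in 1 of 49 mitosis genes, 1 of 47 replication genes, 0 of 23 pigment genes, 0 of 31 follicle transcription factors and 1 of 16 Hedgehog genes. Low minus high medians of these lists were -1.12, -0.83, -0.39, -0.58 and 0.02. The shaft, sheath and keratin-associated lists had -5.12, -4.77 and -5.07. The counts therefore do not compare lists at an equal size of difference, and the share over all genes was not counted. The gap between the low animals rests on 1 animal of each genotype and has no replicate.

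**Figure D3:**
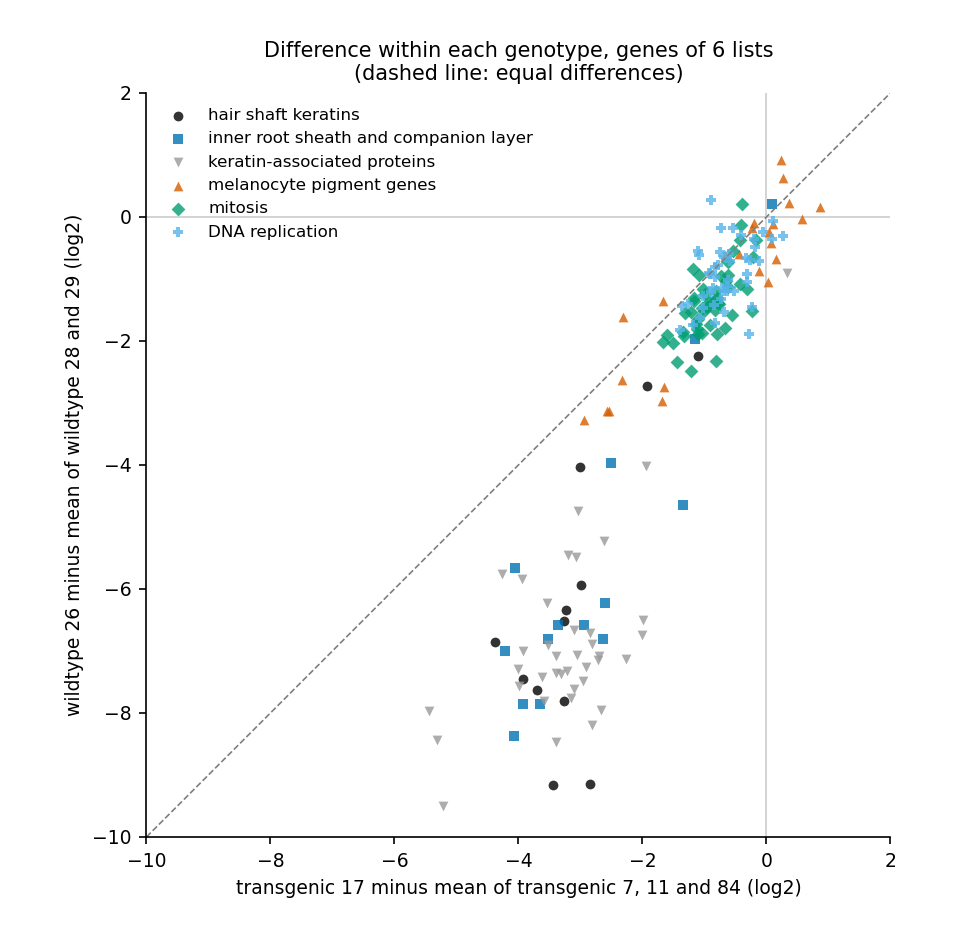
Difference of transgenic 17 from the mean of transgenic 7, 11 and 84 (x axis, log2) against the difference of wildtype 26 from the mean of wildtype 28 and 29 (y axis, log2), 1 point per gene of 6 lists. Most keratins, sheath genes and keratin-associated proteins lie far under the dashed line of equal differences, while mitosis, replication and pigment genes lie near it.

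Transcription factors of the follicle lineage were lower in 9 of 31 measured genes and higher in 0, with a median of -0.58 (-0.50 in males, where 10 were lower). Msx2, a homeobox factor of matrix and shaft, had log2 levels of 10.51, 10.42 and 10.66 in transgenic 7, 11 and 84 and of 10.96 and 11.37 in wildtype 28 and 29. Both low animals stood close together, at 7.05 in transgenic 17 and 7.16 in wildtype 26, a difference of -3.68. Lef1, which acts with beta-catenin in the precursors of the shaft, ranged from 8.83 to 9.84 in the high animals and stood at 6.31 and 6.75 in transgenic 17 and wildtype 26. Dlx3 differed by -2.67, Foxn1, the factor missing in nude mice, by -2.58, and Hoxc13, a regulator of hair keratin genes, by -2.57. Other probe sets of Dlx3 and Foxn1 gave -0.70 and -0.88 and were not called. Lhx2, Tbx1, Vdr and Cux1 were the other lower members, at -1.36 to -1.11. Other members lay between -0.97 for Ovol1 and 0.62 for Tcf4.

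Hedgehog signalling drives growth of the follicle, and Shh is its ligand, made by matrix cells. Shh stood at 9.84, 11.24 and 11.23 in transgenic 7, 11 and 84 and at 10.46 and 10.56 in wildtype 28 and 29. In transgenic 17 it was 6.77 and in wildtype 26 it was 5.29, within 1 unit of the floor, so the difference of -4.64 depends on the pseudocount. Another probe set of Shh gave -0.90 and was not called. Transgenic 11, the lowest high animal in hair keratins, had the highest Shh level. Hhip, which binds the ligand, differed by -2.23, Ptch1, its receptor and target, by -1.87 (its other probe sets gave -0.20 to 0.83), and the transcription factors Gli2 and Gli1 by -1.43 and -1.13. These were the 5 lower genes of 16 measured, 0 were higher, and the median of the list was 0.02 (-0.30 in males). Ihh and Dhh, the other ligands, differed by 0.16 and 0.59 and were not called, and Smo, the signal transducer, by 0.06.

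Ligands and receptors of the Wnt pathway, which starts hair growth, were mostly within 1 log2 unit. Of 45 measured genes, Lef1 and the feedback inhibitor Nkd2 (-1.07) were lower and Sfrp2, a secreted inhibitor, was higher (1.20), with a median of -0.21. In the males 2 were lower and 0 higher (median -0.24), and neither Nkd2 (-0.96) nor Sfrp2 (0.997) was called. Wif1, another secreted inhibitor that is strong in the dermal papilla, stood at 10.13 in transgenic 11, 9.68 in wildtype 28 and 9.75 in 29, but at 7.02 and 7.26 in transgenic 7 and 84. With 6.16 in transgenic 17 and 7.35 in wildtype 26 the sets overlapped, and the difference of -2.01 was not called. In the males, where both high animals stood near 10, Wif1 was lower by the rule, at -3.15. Transgenic 7 and 84 are also the animals with the highest Gapdh 3' to 5' ratios, and the part of RNA quality or of sex in the Wif1 level was not tested. Axin2, a general target of the pathway, differed by 0.34.

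In the BMP pathway, which restrains the resting follicle and directs shaft differentiation, 3 of 22 genes were lower and 0 were higher (median -0.40), and the males gave the same counts (median -0.43). Bambi, a decoy receptor, ranged from 10.44 to 11.73 in high animals and stood at 8.36 and 7.78 in transgenic 17 and wildtype 26, a difference of -3.05. Smad6, an inhibitory Smad, differed by -1.31 and the ligand Bmp8a by -1.23. The other ligands Bmp2, Bmp4, Bmp6 and Bmp7 lay between -0.90 and -0.56 and were not called.

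Among 34 growth factors, receptors and binding proteins of the hair cycle, 3 were lower and 2 higher (median 0.16), and in the males 4 and 2 (median 0.18). Fgf5, the signal that ends hair growth, stood at 8.54, 7.31 and 8.06 in transgenic 7, 11 and 84 and at 8.14 and 8.88 in wildtype 28 and 29. Transgenic 17 had 4.87 and wildtype 26 had 4.69, both near the floor, so the difference of -3.41 depends on the pseudocount. Another probe set of Fgf5 gave -0.43 and was not called. Fgf22 and Tgfa, ligands of FGF and EGF receptors, differed by -1.30 and -1.20, and another probe set of Fgf22 gave -0.61. Igfbp2, which binds insulin-like growth factors, was higher by 1.51 (0.86 and not called in males), with 12.25 and 11.35 in transgenic 17 and wildtype 26 and a range of 8.95 to 11.16 in the high animals. Igfbp3, of the same family, was higher by 1.36, and the males gave 1.84.

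Genes used as markers of resting follicle stem cells had a median of 0.02, with 2 of 23 lower and 0 higher, and in the males 2 lower and 1 higher (median 0.10). Tnc, a matrix protein of the bulge, and Lhx2 were the lower ones (-1.49 and -1.36). Cd34, a bulge marker that vessels carry as well, stood at 12.75 and 13.18 in transgenic 17 and wildtype 26 and between 11.79 and 12.51 in the high animals, a difference of 0.83 that missed the size required. Fgf18, a signal of the resting bulge, differed by 0.93, and Krt15, a bulge keratin, by 0.24. In the dermal papilla list 4 of 23 genes were lower and 1 was higher (median -0.43), and in the males 5 and 2 (median -0.44). Lef1 and Hhip, already described with other lists, were among the lower ones. Corin, a protease of the papilla, stood between 7.38 and 9.26 in high animals and at 6.29 and 6.14 in the low ones, a difference of -2.40. Akap12, a scaffold protein, was the higher gene (1.21).

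Pigment genes were lower in 7 of 23 and higher in 0, and in the males lower in 8 (median -0.38). Tyrp1, an enzyme of melanin synthesis, stood at 10.05, 10.19 and 10.87 in transgenic 7, 11 and 84 and at 11.55 and 11.15 in wildtype 28 and 29. It was 7.42 in transgenic 17 and 8.08 in wildtype 26, a difference of -3.01 (-3.12 in males). For this gene transgenic 17 was the lowest animal, as it was in 2 of the 12 hair shaft keratins (Krt36 and Krt84). Trpm1, a channel of melanocytes, differed by -2.73, Pmel, the fibril protein of melanosomes, by -2.70, and the enzymes Dct and Tyr by -2.40 and -2.18. Other probe sets of Trpm1 gave -0.98 to -0.08 and were not called. Gpr143, a melanosome receptor, and Oca2, a melanosome transporter, were the other lower genes (-2.07 and -1.48). The median of the list was -0.39, and Sox10, Kit and Mitf, factors of the melanocyte lineage, differed by 0.42, -0.25 and -0.64.

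Mitosis genes were lower in 33 of 49 and higher in 0, with a median of -1.12 and a median of -1.31 in the males. Top2a stood at 10.91, 11.88 and 11.69 in transgenic 7, 11 and 84 and at 11.45 and 11.79 in wildtype 28 and 29. The low animals had 10.16 and 9.70, a difference of -1.61 (SD of the high animals 0.39), while the other probe sets of Top2a gave -0.14 to 0.06. Transgenic 7 was the lowest high animal in 45 of the 49 genes and transgenic 11 the highest in 25. Ndc80, a kinetochore protein, differed by -1.93, Bub1b and Bub1, kinases of the spindle checkpoint, by -1.84 and -1.82, and Mki67, the Ki-67 antigen, by -1.75. Other probe sets of Bub1b gave -0.98 to 0.06 and were not called. All 49 genes had a negative difference, the smallest being -0.10 for Ttk.

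DNA replication genes gave 12 lower of 47 and 0 higher, with a median of -0.83 (-0.99 in males, where 22 were lower). Uhrf1, which copies DNA methylation at the fork, ranged from 8.81 to 9.98 in high animals and stood at 8.09 and 7.80 in transgenic 17 and wildtype 26, a difference of -1.60. Brca1, a repair factor, differed by -1.44, Gins2, of the replicative helicase, by -1.42, and Mcm5, a helicase subunit, by -1.31. E2f1 was the only member with a positive difference (0.08). The order of the high animals in cell division was not their order in hair keratins: transgenic 11 was the lowest of them in 10 of 12 hair shaft keratins and 35 of 38 keratin-associated proteins, and the highest in 30 of 47 replication genes.

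Genes outside the lists were among the most different. Fbp1, fructose-1,6-bisphosphatase of gluconeogenesis, stood between 12.18 and 12.94 in the high animals, at 8.10 in transgenic 17 and at 4.86 in wildtype 26, near the floor, so the difference of -6.05 depends on the pseudocount. Lyg2, a goose-type lysozyme, ranged from 9.48 to 11.25 in high animals and stood at 4.85 and 4.69 in transgenic 17 and wildtype 26, near the floor (-5.66). In the interfollicular epidermis, which covers the skin between follicles, basal keratinocyte genes had a median of -0.04, with 0 of 19 lower and 1 higher, Igfbp2, and in the males 0 of either.

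Cornified envelope genes, which form the outer epidermal barrier, moved in both directions, with 5 lower and 7 higher of 53. In the males 5 were lower and 3 higher (median 0.38), and Hrnr, Lce1a1, Lce1h and Lce1l were not called. Sprr2h and Sprr1b, small proline-rich proteins, differed by -3.27 and -2.80 and Lce3a, a late envelope protein, by -2.22. Sprr2h ranged from 8.83 in transgenic 11 to 12.38 in transgenic 7 among the high animals, against 8.13 and 7.46 in transgenic 17 and wildtype 26. On the other side were Hrnr, hornerin (1.48), Krt1, a keratin of the spinous layer (1.34), the lipoxygenase Alox12b (1.01) and Lce1h, Lce1l, Lce1m and Lce1a1 (1.03 to 1.19). Krt6a, a keratin of the companion layer and of stressed epidermis, differed by -1.20, and by -0.98 in the males, where it was not called.

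Sebaceous gland and lipid synthesis genes gave 5 higher and 1 lower of 35, with a median of 0.33, and in the males 2 higher and 1 lower (median 0.31). Far2, which makes fatty alcohols for wax, stood at 14.08 and 13.59 in transgenic 17 and wildtype 26 and between 12.06 and 13.12 in the high animals, a difference of 1.31 (1.12 in males). Lss and Cyp51, enzymes of sterol synthesis, were higher by 1.38 and 1.20, but by only 0.75 and 0.69, and not called, in the males. Fads2, a fatty acid desaturase, was lower (-2.08). Among 26 adipocyte genes 1 was higher, Aqp7, a glycerol channel (1.32), whose other probe set gave -0.71 and was not called higher. In the males 2 were higher (median 0.30), and Adipoq and Fabp4 differed by 0.26 and -0.11.

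**Figure D4:**
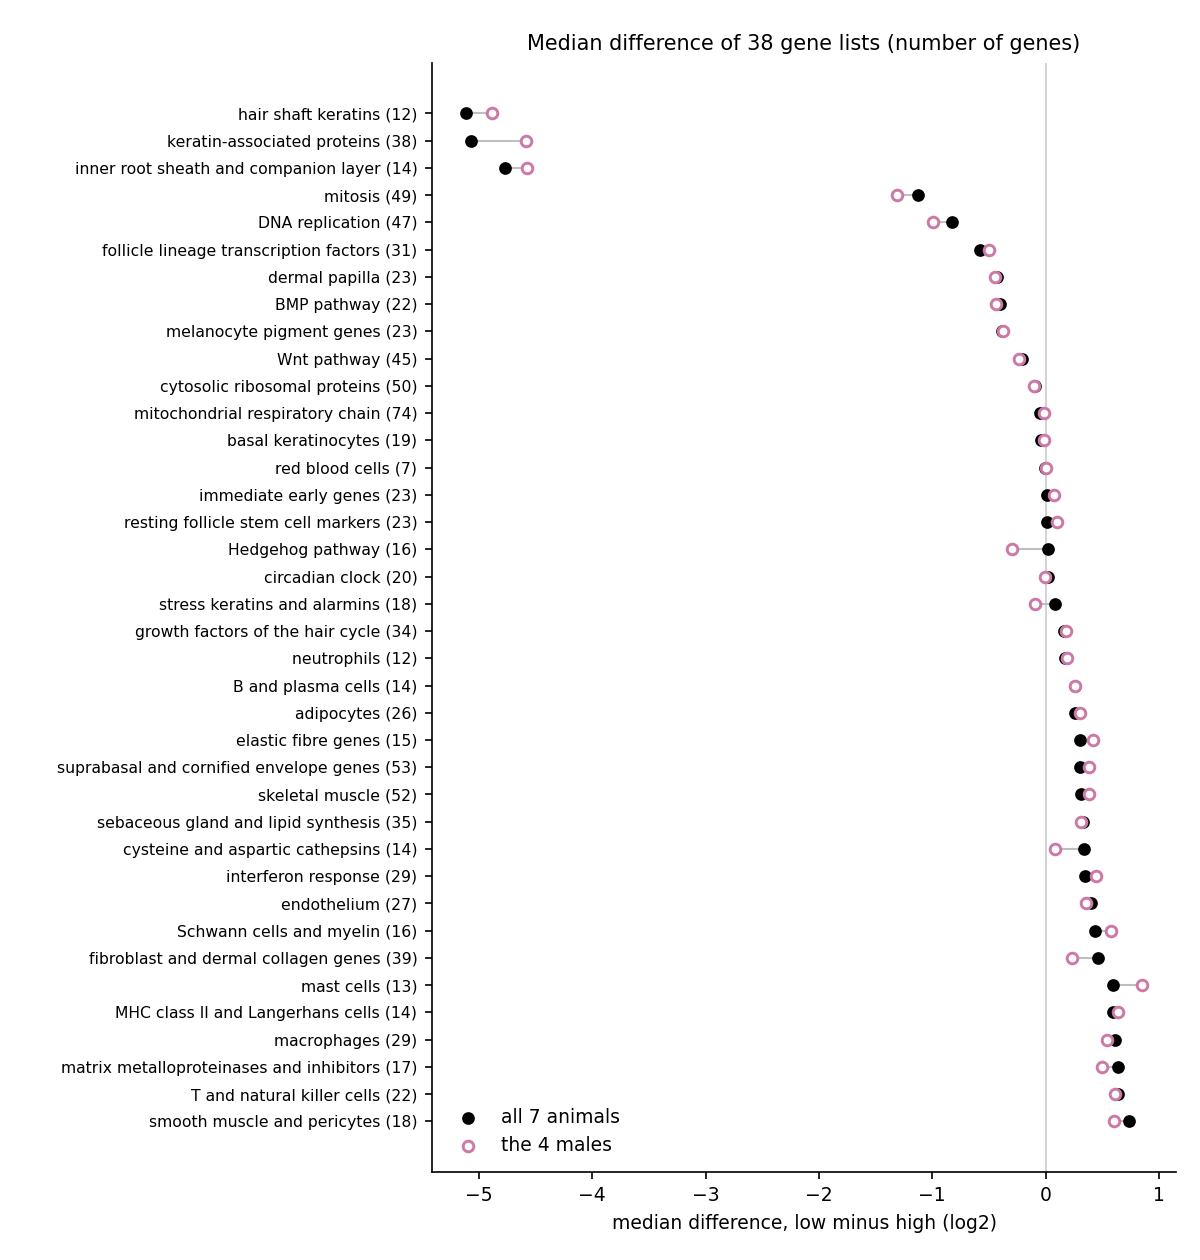
Median difference, low minus high, on the log2 scale (x axis) of 38 gene lists (y axis, number of genes in brackets), as filled points for all 7 animals and open points for the 4 males. The 3 shaft and sheath lists lie between -5.12 and -4.58, mitosis and replication genes near -1, and lists of dermal and immune cells between 0 and 1.

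Genes of the dermis, vessels and immune cells lay on the positive side with few calls. The mean of 39 fibroblast and collagen genes was 12.39 to 12.53 in the low animals, 12.18 to 12.28 in the high males and 11.60 to 11.89 in the high females. Sex therefore moved with this list, and its part in the difference was not tested. Of the 39 genes 5 were higher and 0 lower (median 0.46), and in the males 0 were higher (median 0.23). Smooth muscle and pericyte genes had a median of 0.74 (0.60 in males) with 1 of 18 higher and 4 in the males. Endothelial genes had a median of 0.40 (0.36 in males) with 1 of 27 higher, Pecam1, which was not called in the males (0.76).

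Females were the lowest animals in many of the genes with the largest positive differences. Over the 308 higher genes, the mean of the high males lay above that of the high females in 210, by at least 1 log2 unit in 47. In 300 of the 485 lower genes the high males likewise lay on the side of the low animals, under the high females, but by at least 1 in only 22. Over all genes the median of high males minus high females was -0.01. Of the high females, transgenic 7 and 84 also had the highest Gapdh 3' to 5' ratios (13.8 and 17.2), and wildtype 29 did not. The parts of sex and of RNA quality were not tested. Cthrc1, a secreted protein of matrix-forming fibroblasts, stood at 8.19, 7.40 and 7.37 in females 7, 84 and 29 and at 10.61 and 11.17 in high males 11 and 28. Transgenic 17 had 11.45 and wildtype 26 had 11.34, so the difference of 2.44 became 0.50 in the males. Ctsk, cathepsin K, which cleaves collagen, stood between 11.01 and 11.79 in the females, at 13.81 and 13.80 in the high males and at 14.04 and 14.41 in the low animals (1.86, and 0.42 in males). Sult1e1, which sulphates oestrogens, differed by 2.93 and by 0.98 in the males, and C1qtnf3, a secreted relative of C1q, by 2.63 and 1.09.

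Other genes with positive differences stood apart from the high males as well. Angptl1, a secreted angiopoietin-like protein, was at 8.16 and 8.54 in the low animals, 6.82 and 6.16 in the high males and 5.17 to 5.74 in the females, a difference of 2.50 and of 1.86 in the males. Serpinb12, a clade B serpin like the transgene product, was at 10.33 in transgenic 17 and 10.18 in wildtype 26, and between 6.82 and 8.80 in the high animals (2.28, and 1.66 in males). Mmp3, stromelysin, differed by 2.12 and by 1.15 in the males. Of the 485 lower genes 432 (89.1%) were also lower by the rule in the males, and of the 308 higher genes 164 (53.2%) were also higher there. Since both low animals are male, only the required size of 1 log2 unit could be missed there. The median difference was -1.52 over the lower genes and 1.15 over the higher ones, which lay nearer to that size.

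**Figure D5:**
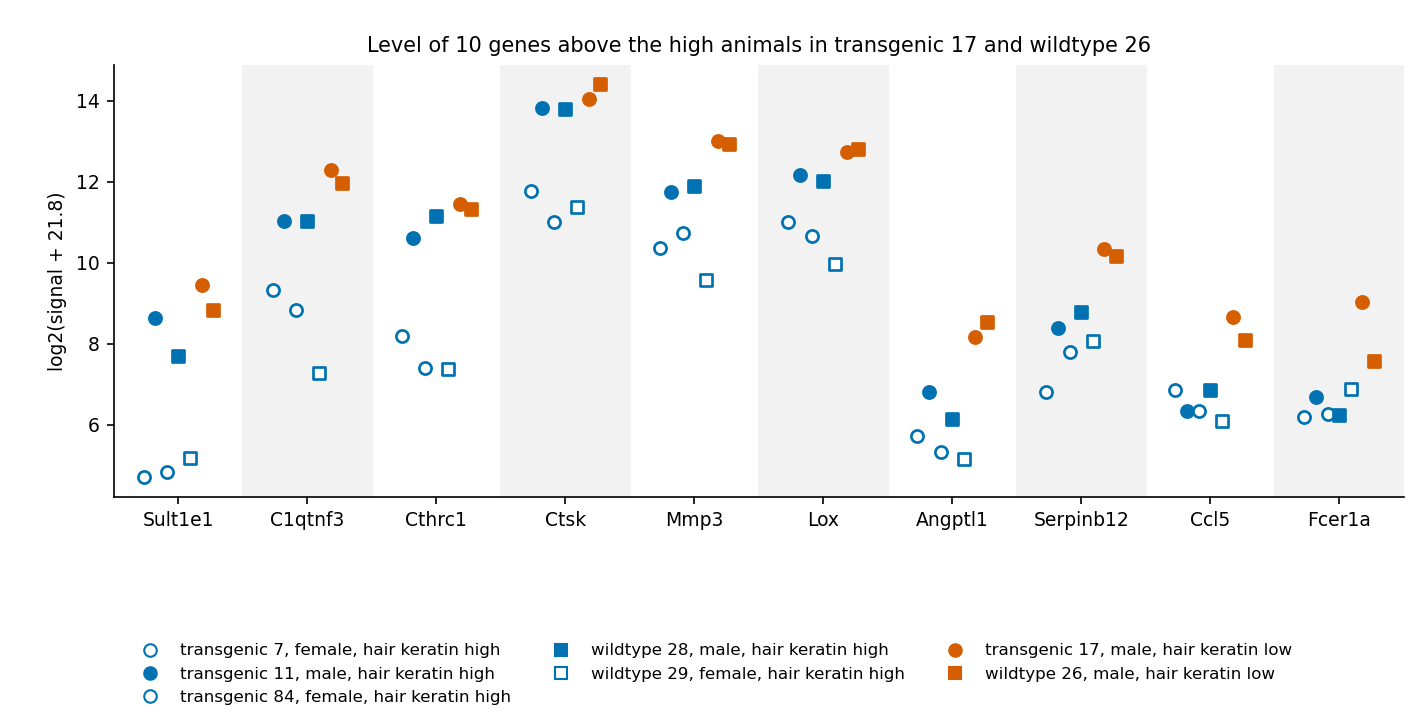
Log2(signal + 21.8) of 10 genes of the higher group (y axis) in each of the 7 animals, with orange for the low and blue for the high set, circles for transgenic, squares for wildtype, filled for males and open for females. For Sult1e1, C1qtnf3, Cthrc1 and Ctsk the blue males lie near the orange points and the females far under them, while Angptl1, Serpinb12 and Ccl5 separate the orange points from both sexes.

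Immune cell genes had median differences from 0.17 to 0.64. Macrophage genes gave 4 higher and 0 lower of 29 (median 0.61, 0.54 in males), with Clec4n, a lectin receptor, higher by 1.54. In the males 1 macrophage gene was higher, and Clec4n was not called (0.92). Genes of T and natural killer cells gave 4 higher of 22 (median 0.64), and 4 in the males (median 0.61). Ccl5, a chemokine of these cells, stood at 8.67 and 8.11 in transgenic 17 and wildtype 26 and between 6.09 and 6.87 in the high animals, a difference of 1.88 (1.78 in males), with 1.27 between the arrays of wildtype 29. Mast cell genes gave 2 higher of 13 (median 0.59, 0.85 in males, where 5 were higher). The mean level of this list was 8.88 in transgenic 17 and 8.10 in wildtype 26. It ranged from 7.38 to 8.32 in the high animals, so the sets overlapped, and from 7.38 to 7.87 in the high males. Transgenic 17 exceeded wildtype 26 in all 13 genes, a gap that rests on 1 animal of each genotype. Fcer1a, the alpha chain of the IgE receptor, stood at 9.04 in transgenic 17, 7.57 in wildtype 26 and 6.21 to 6.89 in the high animals.

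Cathepsins were examined because hurpin inhibits cathepsin L, whose loss in mice disturbs the hair cycle. Ctsl itself stood at 14.02 in transgenic 17 and in wildtype 26 and between 13.89 and 14.51 in the high animals, a difference of -0.23 with overlapping sets. Another probe set of Ctsl, with less signal, gave 1.67 and was not called either, so the array does not settle the sign for this gene. Ctse, an aspartic protease, stood at 12.40, 11.15 and 12.12 in transgenic 7, 11 and 84 and at 12.48 and 12.81 in wildtype 28 and 29, against 8.51 in transgenic 17 and 7.65 in wildtype 26 (-4.11). Of the 14 cathepsin genes Ctse was lower, Ctsk and Ctsw were higher (1.86 and 1.02), and the median was 0.33 (0.08 in males).

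Genotype did not choose the animals, so transgenic and wildtype skin were compared with limma over 27022 probe sets, fitted with genotype alone. At a Benjamini-Hochberg adjusted p under 0.05, 4 probe sets were called (0.0148%), those of Gna13, Khdrbs1, Rbm39 and of a transcript with no symbol, none of which is in a list. With hair keratin set, which was chosen from these same data, as a covariate 6 were called. Among them was Ighm of the B and plasma cell list, at 1.51 with an SE of 0.15 (limma adjusted p = 0.035). With genotype alone Ighm differed by 1.42 (limma adjusted p = 0.301). Krt31 averaged 12.84 ± 2.06 (SD, n = 4) with the transgene and 12.01 ± 4.31 (SD, n = 3) without it, a difference of 0.83 with an SE of 1.82 (limma adjusted p = 0.886). Top2a differed by 0.18 with an SE of 0.55 (adjusted p = 0.921) and Tyrp1 by -0.62 with an SE of 0.98 (adjusted p = 0.831). The SE of Krt31 was more than the difference, and in each genotype the low animal lay far under the others.

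Of the listed genes that passed the level filter, limma called 0 of 12 hair shaft keratins (0 at an unadjusted p under 0.05, smallest adjusted p 0.653), 0 of 14 inner root sheath genes (0 unadjusted) and 0 of 37 keratin-associated proteins of 38 measured (0 unadjusted). It called 0 of 49 mitosis genes (0 unadjusted), 0 of 47 replication genes (1 unadjusted) and 0 of 20 pigment genes of 23 measured (3 unadjusted). The background, over all genes that passed the filter, was 1220 of 13559 at an unadjusted p under 0.05. Leaving out transgenic 11 raised the number of probe sets called by genotype to 269, and leaving out transgenic 17 or 84 to 12 or 11. It was 2 when wildtype 26 was left out and 0 when wildtype 28 was, with 1621 at an unadjusted p under 0.05 in that last fit. These p-values set the mean difference of the genotypes against the spread between animals of a genotype, and that spread holds the gap between low and high animals. With hair keratin set as a covariate, 9 of 20 pigment genes had an unadjusted p under 0.05, against 2002 of all 13559 genes. The other lists then had 2 of 12 hair shaft keratins, 1 of 14 inner root sheath genes and 1 of 37 keratin-associated proteins. Mitosis genes had 0 of 49 and replication genes 1 of 47. None of these list members was called after adjustment. This covariate was itself chosen from the measured hair keratin values of the same animals. For hair keratins and genes that move with them the fit reuses those values, so nothing is concluded from these counts. Transgenic 7 and 84 also had the highest Gapdh 3' to 5' ratios (13.8 and 17.2), and the part of RNA quality was not tested. Nothing in the labels says how the tissue was sampled.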

How the data were processed

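Total RNA of belly skin was labelled with the Affymetrix one-cycle protocol, per the labels, and hybridised to 8 arrays of 7 mice. The authors deposited signal intensity, not on a log scale, which MAS5 had produced, per the submitters' processing notes (version not given in the sources used here). The mean of each array after leaving out the lowest and highest 2% was 500.003, and no detection calls were used. Of 45101 probe sets 64 controls were left out. The platform annotation gave 1 symbol to 34945 probe sets, several to 932 and none to 9160, and the latter 2 kinds were not named. Levels are log2(signal + 21.8), where 21.8 is the 20th percentile, without further normalization.

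The animals, members and gene lists were chosen with earlier results of these data known, so low and high skin were only described. Named were the markers, at most 4 genes of each list with the largest absolute difference (most abundant probe set), Ctsl, and 15 lower and 15 higher genes whose differences had 1 sign within both genotypes and within males. Other list members named were chosen after their values were seen. Genotype was tested with limma 3.58.1 in R 4.3.3 (trend, 2-sided) on probe sets at or above the 40th percentile of mean level, with scripts tested on simulated data. Figures used Python 3.11.15 and matplotlib 3.10.9. Alternatives were the pseudocount, quantile normalization, the arrays of wildtype 29, males or 1 genotype only, each animal left out, the level filter, the probe set of a gene, sex or hair keratin set as covariates. The number of arrays limits the precision. Promoters and gene order are from RefSeq on GRCm38.p6.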

Additional observations from a re-analysis of the deposited data

Results flagged for a closer look

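The 4 transgenic animals were examined for a value far from the others in 170 named genes and 6 list means, and 13 genes and 0 list means had one. Chance alone marks about 1 in 20 such groups of independent values. That rate does not apply here: transgenic 17, the distant animal in 12 of the 13, was placed in the low set by its hair keratins, and most of these genes were named for their difference between the sets, so its distance restates that choice. It was far under the others, in log2 level, for Krt71 (11.46), S100a3 (9.27), Padi3 (8.28), Krt73 (9.16), Krtap19-1 (8.62), Msx2 (7.05), Dlx3 (7.99), Foxn1 (7.41), Gli2 (8.77), Fbp1 (8.10) and Lyg2 (4.85). For Mag, a myelin protein, transgenic 17 stood above the others at 7.09. Transgenic 11 was the distant animal for Sln, a regulator of the muscle calcium pump, at 9.72.

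Ndufb4, a subunit of respiratory complex I, was flagged for differences of opposite sign in the genotypes. Transgenic 17 lay 0.15 under the mean of the other transgenic animals (-0.15), wildtype 26 lay 0.72 above the mean of the other wildtype animals, and the gap between these differences was -0.865. This opposition rests on 1 low animal in each genotype and was not tested.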

How the results depend on the processing

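No named gene counted as lower or higher, and none of the 6 lists of shaft, sheath, keratin-associated, pigment, mitosis and replication genes, changed sign under an alternative. The medians of 7 of 39 lists did, none of them more than 0.0847 from 0 in the main setting, as did C1qa, Ndufb4 and a probe set of Uty, in which low and high animals overlapped. The counts of lower and higher probe sets (828 and 673) became 1248 and 1308 with the pseudocount divided by 4, 438 and 179 with it multiplied by 4, 1515 and 1150 in males, 1935 and 1528 in transgenic animals only, and 2044 and 3027 in wildtype animals only. Without transgenic 7 and 84 the lower count was 1310, with the level filter the higher count was 362, and with 1 probe set a gene the counts were 485 and 308. With each animal left out they ranged from 844 to 1766 and from 728 to 2415. Medians of hair shaft keratins, inner root sheath genes and keratin-associated proteins were -3.24, -3.15 and -3.13 in transgenic animals only and -6.69, -6.58 and -7.10 in wildtype animals only. With each animal left out they ranged from -6.06 to -3.58, from -6.20 to -3.48 and from -6.79 to -3.54, with both ends set by leaving out transgenic 17 or wildtype 26. The number called by genotype (4) became 11 with sex as a covariate, 10 with the larger pseudocount, 11 in high animals only, and 0 to 269 with each animal left out. Fewer animals ease the condition of no overlap and also change the mean difference. The cause of the moves was not tested. No paired analysis was possible because the genotypes share no replicate number.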

Other observations

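Several gene groups of whole skin differed little between the sets. Of 74 genes of the mitochondrial respiratory chain 0 were lower and 0 higher by the rule of the report (median -0.05), and of 50 cytosolic ribosomal proteins likewise 0 (median -0.10). Clock genes had a median of 0.02, with Npas2, a partner of the clock activator, higher by 1.28 and Nfil3, a repressor, lower (-1.15). In the males 1 clock gene was lower and 2 were higher. Per1, Per2 and Dbp, which cycle over the day, differed by 0.79, -0.38 and -0.51 and were not called. Among 23 immediate early genes Egr1 alone was lower (-1.07).

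Interferon response genes had a median of 0.35 with 2 of 29 higher, and in the males 3 (median 0.45), where Psmb8 was not called (0.94). Psmb9 and Psmb8, subunits of the immunoproteasome, stood at 11.03 and 11.36 in transgenic 17 and at 11.07 and 11.23 in wildtype 26. In the high animals Psmb9 ranged from 9.21 to 10.23 and Psmb8 from 9.80 to 10.43. Skeletal muscle genes had a median of 0.32, with 1 of 52 lower, Tnni1, the slow troponin I (-1.60), and 0 higher, and in the males 2 lower and 1 higher (median 0.38). Their mean level was 10.96 to 11.05 in the low animals and 10.38 to 11.13 in the high ones, so the sets overlapped.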
